A study of Homo sapiens with 5 samples.

Results

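The RUNX family and its partner were examined for TEAD4 binding sites in LX-2, a human hepatic stellate cell (HSC) line used as a model of myofibroblastic HSCs (MF-HSCs). The family consists of the 3 RUNX genes RUNX1, RUNX2 and RUNX3, and CBFB was taken with them. A TEAD4 peak was assigned to one of these genes when its summit lay in the gene body or within 50 kb of any of its transcription start sites (TSSs), in GENCODE release 44 on hg38. This gave 34 of the 21113 peaks of the list, and the 4 genes were compared with all 20033 protein-coding gene entries of the annotation. RUNX1 had 26 peaks and RUNX2 had 8, whereas RUNX3 and CBFB had 0.

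TEAD4 chromatin immunoprecipitation followed by sequencing (ChIP-seq) was performed on LX-2 cells given the solvent DMSO, in 3 replicates, with 1 input shared by replicates 1 and 2 and 1 input for replicate 3. All samples carried the same treatment, so no group was compared with another. The peak list was built by the authors from replicates 1 and 3 together and holds no value per replicate, so each signal value given here is a single value without a spread and the depth behind it is unknown. LX-2 is 1 immortalised line, the antibody was directed against TEAD4, and a peak records TEAD4 on chromatin and not the expression of the nearest gene.

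RUNX proteins bind DNA through the Runt domain, and CBFB, which does not bind DNA itself, forms a heterodimer with each of them and strengthens their binding. RUNX1 is known for its role in the formation of blood cells, RUNX2 for bone formation and RUNX3 for T cells, sensory neurons and epithelia. Each RUNX gene is transcribed from a distal promoter (P1) and a proximal promoter (P2), which give proteins with different N-terminal ends, and P2 is the one that lies in CpG-rich sequence. TEAD4 belongs to the TEA domain factors, which recruit the coactivators YAP1 and WWTR1 and often bind beside AP-1 factors.

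The sequences at which the description turns are given first. Motifs were searched on both strands wholly within 100 bp of each summit as exact matches to ACATTCC for TEAD, TGACTCA for AP-1 (TGAGTCA on the opposite strand) and TGTGGTT for RUNX (AACCACA on the opposite strand). The first 5 windows are those of all summits at which the TEAD motif occurred with another of the motifs, followed by the other strong RUNX2 summits, the only summit close to the RUNX1 P1 promoter and the part of the P2 peak that lies upstream of the P2 TSS. Windows span 100 bp to either side of a summit on the plus strand of hg38, and capitals mark the motifs of 7 bases. In the P2 sequence, which is written on the minus strand in the direction of RUNX1 transcription, capitals mark the only match to the shorter TEAD core CATTCC, on the strand where it reads GGAATG.
RUNX1, chr21:35477007-35477207, signal value 177.3: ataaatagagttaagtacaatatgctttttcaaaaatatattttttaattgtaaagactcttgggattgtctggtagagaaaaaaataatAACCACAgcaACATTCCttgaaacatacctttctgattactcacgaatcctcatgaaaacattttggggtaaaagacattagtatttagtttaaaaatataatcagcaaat
RUNX1, chr21:35303154-35303354, signal value 97.1: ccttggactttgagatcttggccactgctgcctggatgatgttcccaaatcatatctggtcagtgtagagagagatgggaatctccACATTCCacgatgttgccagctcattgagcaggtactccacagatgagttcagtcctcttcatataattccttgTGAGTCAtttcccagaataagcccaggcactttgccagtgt
RUNX1, chr21:35217786-35217986, signal value 73.1: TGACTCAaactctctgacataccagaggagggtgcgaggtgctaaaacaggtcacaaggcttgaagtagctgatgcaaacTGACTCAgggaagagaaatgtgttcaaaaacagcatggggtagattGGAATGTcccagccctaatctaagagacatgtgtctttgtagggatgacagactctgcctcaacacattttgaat
RUNX1, chr21:35198270-35198470, signal value 61.4: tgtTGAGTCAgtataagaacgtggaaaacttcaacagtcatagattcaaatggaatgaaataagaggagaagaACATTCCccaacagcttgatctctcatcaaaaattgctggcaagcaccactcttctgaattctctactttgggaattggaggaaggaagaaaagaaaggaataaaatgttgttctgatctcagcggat
RUNX2, chr6:45655958-45656158, signal value 402.0: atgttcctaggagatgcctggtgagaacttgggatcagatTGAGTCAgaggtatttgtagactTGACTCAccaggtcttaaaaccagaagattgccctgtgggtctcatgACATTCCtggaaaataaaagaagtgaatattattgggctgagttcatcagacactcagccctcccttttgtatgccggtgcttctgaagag
RUNX2, chr6:45650660-45650860, signal value 290.6: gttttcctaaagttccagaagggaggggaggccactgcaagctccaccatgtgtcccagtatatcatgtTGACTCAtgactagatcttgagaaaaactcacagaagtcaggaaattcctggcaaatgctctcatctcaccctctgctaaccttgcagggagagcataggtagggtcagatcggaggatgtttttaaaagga
RUNX2, chr6:45445921-45446121, signal value 220.2: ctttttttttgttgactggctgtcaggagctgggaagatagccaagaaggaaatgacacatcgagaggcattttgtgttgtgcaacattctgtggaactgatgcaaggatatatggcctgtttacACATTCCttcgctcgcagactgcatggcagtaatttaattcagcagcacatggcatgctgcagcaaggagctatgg
RUNX1 near P1, chr21:35047605-35047805, signal value 61.3: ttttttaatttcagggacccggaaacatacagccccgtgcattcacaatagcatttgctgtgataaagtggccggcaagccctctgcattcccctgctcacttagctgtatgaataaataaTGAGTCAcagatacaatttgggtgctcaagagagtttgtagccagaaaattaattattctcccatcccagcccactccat
RUNX1 P2, chr21:34888691-34888812, signal value of the peak 86.4: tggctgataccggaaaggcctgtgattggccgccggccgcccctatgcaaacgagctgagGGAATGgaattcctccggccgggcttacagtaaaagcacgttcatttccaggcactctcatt

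RUNX1 (ENSG00000159216.19) lies on the minus strand at chr21:34787801-36004667 in GENCODE, a body of 1217 kb with 18 transcripts. The length comes from 1 transcript, RUNX1-214, whose TSS lies at 36004667, far upstream of P1, and which uses the P1 start codon at 35048899. RefSeq ends the gene at P1 and gives it 262 kb (chr21:34787801-35049302). All 26 RUNX1 peaks had their summit in the GENCODE body, 11 of them in the RefSeq body, and 0 lay in an exon of any RUNX1 transcript. TEAD4 summits at RUNX1 thus lay in introns of RUNX1 transcripts, although the summit at P2 was intronic only in transcripts that start upstream of P2. They were spread over the RefSeq gene and part of the long stretch upstream of P1. The far end of that stretch held no summit, and the summit nearest to the RUNX1-214 TSS lay 203 kb away, outside the gene. The stretch free of summits from 35745872 to 36207783 measured 462 kb. Of the gaps between neighbouring summits of the list, 6.14% were at least as long. Long gaps cover more of the genome than short ones, so a gene falls in one more often than such a share of gaps says.

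Along RUNX1, 3 stretches were distinguished, from the 3' end to P2, from P2 to P1 and upstream of P1. The stretch from the 3' end to P2 (101 kb) held 5 peaks, or 4.96 per 100 kb, with a median signal value of 51.6 and values from 11.1 to 112.9. Between P2 and P1 (161 kb) there were 6 peaks, or 3.73 per 100 kb, with a median of 69.9 and values from 15.1 to 131.1. Upstream of P1 (955 kb) there were 15 peaks, or 1.57 per 100 kb, with a median of 72.3 and values from 44.7 to 177.3. Peaks were therefore less dense upstream of P1, but the 3 with the highest signal value in the gene all lay there. Of these 15 peaks, 13 were spanned by no RUNX1 transcript other than RUNX1-214.

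**Figure D1:**
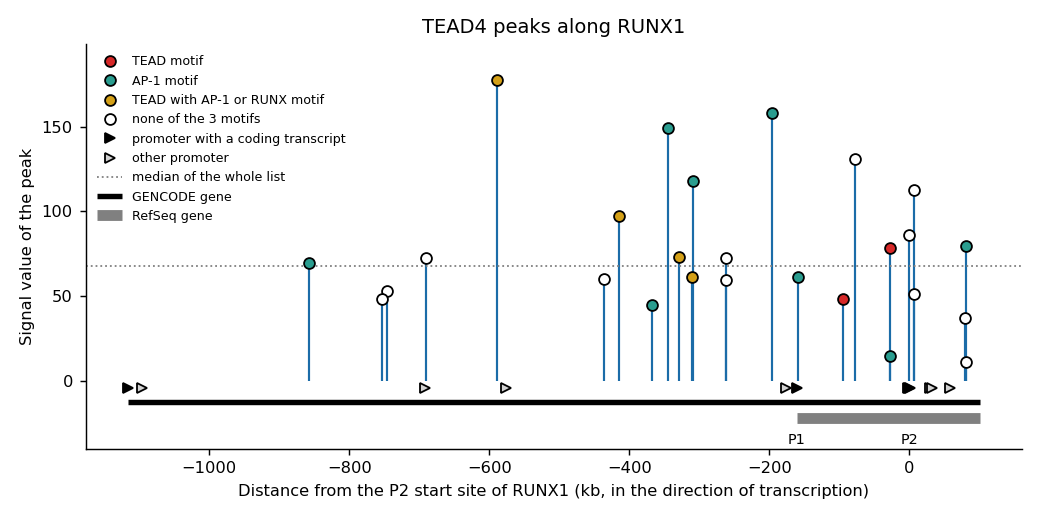
Signal value of each of the 26 TEAD4 peaks along RUNX1 (y axis, the peak caller's units) against the distance of its summit from the P2 TSS (x axis, kb, negative values upstream). Each line is 1 peak, fills show motifs within 100 bp of the summit, triangles are promoters, the bars under the axis are the GENCODE and RefSeq gene bodies and the dotted line is the list's median of 68.1. The highest peak, at 177.3, stands upstream of P1, outside the RefSeq gene.

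At the alternative promoters, TSSs within 500 bp of their neighbour were counted as 1 promoter, which gave RUNX1 12 promoters, 5 of them with a protein-coding transcript. At RUNX1 3 summits lay within 2.5 kb of a TSS. The first, at 34888733, lay 43 bp upstream of the P2 TSS at 34888690, from which RUNX1-202 and RUNX1-203 start, and had a signal value of 86.4. It also lay within 2.5 kb of the TSSs of RUNX1-204 (1057 bp away) and RUNX1-205 (1550 bp away). The second, at 35047705, lay 1565 bp inside the gene from the nearest P1 TSS at 35049270 and had a signal value of 61.3. The third, at 35578508, lay 2252 bp inside RUNX1-211, a transcript without a defined coding sequence, and had a signal value of 72.3. Both main promoters of RUNX1 thus had a TEAD4 peak nearby, but only that at P2 lay within 1 kb of a TSS.

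The 2 RUNX1 promoters differ in base composition. Within 500 bp of the P2 TSS the GC content was 67.3% and the ratio of observed to expected CpG was 0.95, whereas at P1 they were 43.7% and 0.35. The upstream part of the P2 peak, printed above, is 122 bp long, and its TEAD core lies 16 bp from the summit and 59 bp upstream of the TSS. None of the 3 motifs of 7 bases was found within 100 bp of the P2 summit. At the summit near P1, a TEAD core of 6 bases lay 11 bp from the summit and an AP-1 motif 24 bp from it. Both promoters thus had this core close to the summit, as did 46.8% of the list within 100 bp.

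RUNX2 (ENSG00000124813.23) lies on the plus strand at chr6:45328157-45664349, a body of 336 kb with 12 transcripts and 3 promoters, and again GENCODE goes beyond RefSeq, which gives 223 kb (chr6:45328330-45551082). All 8 summits lay downstream of P2 in the gene body, and 0 lay in an exon. The stretch of 93.9 kb from P1 to P2 held 0 peaks. From P2 to the RefSeq end (129 kb) there were 2 peaks, with signal values of 220.2 and 120.3. Beyond the RefSeq end (113 kb) there were 6 peaks, or 5.30 per 100 kb, with signal values of 402.0, 290.6, 100.9, 49.1, 42.2 and 9.73, in a part spanned only by the transcripts RUNX2-206 and RUNX2-209. All RUNX2 peaks thus lay downstream of P2, whereas RUNX1 had 6 peaks between P2 and P1 and 15 upstream of P1. Per length, however, RUNX1 peaks were also densest at the 3' side, with 4.96 per 100 kb from the 3' end to P2.

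**Figure D2:**
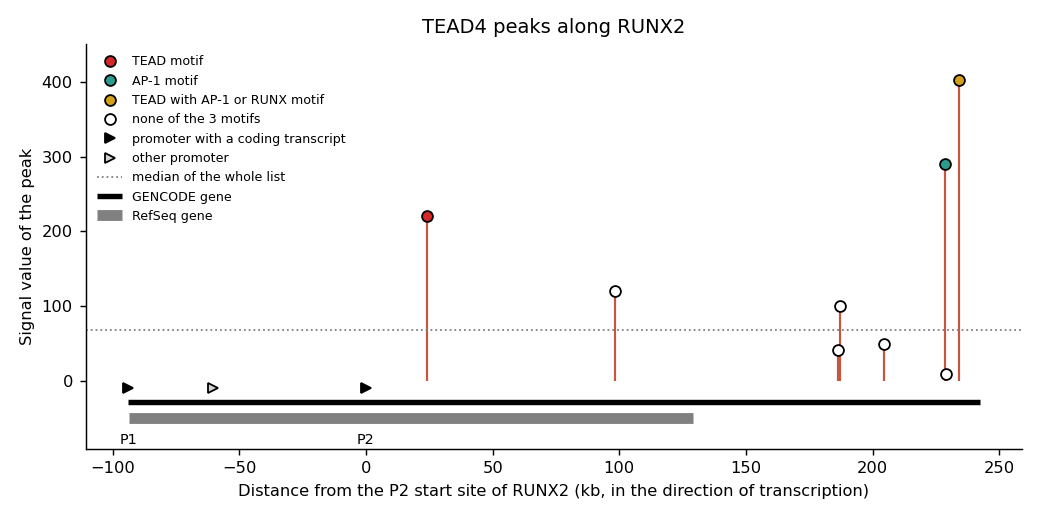
Signal value of each of the 8 TEAD4 peaks along RUNX2 (y axis, the peak caller's units) against the distance of its summit from the first P2 TSS (x axis, kb, positive values downstream), with symbols as in the plot for RUNX1. The 93.9 kb between P1 and P2 hold 0 peaks, and the peaks at 290.6 and 402.0 stand near the 3' end of the longest transcripts, outside the RefSeq gene.

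No RUNX2 summit lay within 2.5 kb of a TSS. The summit nearest to P2 lay 23444 bp from the last of its TSSs, at 45446021, and it was also the nearest to P1, at 117294 bp. P2 of RUNX2 is CpG-rich (observed to expected ratio of 0.80, GC content 68.0%) and P1 is not (0.11 and 36.7%). Upstream of RUNX2 the next summit lay 430 kb before the gene, at 44898527, and was nearest to SUPT3H. The stretch free of summits from there to 45446021 measured 547 kb. Of the 21089 gaps between neighbouring summits of the list, 4.91% were at least as long, and their median was 37.3 kb. The 4.91% is a share of gaps and not of the genome, of which long gaps cover more.

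RUNX3 (ENSG00000020633.19), on the minus strand at chr1:24899511-24965121 with 3 promoters, had no peak in its body or within 50 kb of a TSS. The nearest summits lay 106 kb beyond its 3' end (24793998, signal value 74.7), where CLIC4 is the nearest gene, and 117 kb upstream of P1 (25082401, signal value 57.9). The summit upstream of P1 has RUNX3 itself as the protein-coding gene with the nearest TSS, but lies beyond the 50 kb of the rule. The gap between these summits measured 288 kb, and 11.1% of the gaps of the list were at least as long. This is again a share of gaps and not of the genome. P2 of RUNX3 had an observed to expected CpG ratio of 0.92 and P1 one of 0.54. CBFB (ENSG00000067955.15), on the plus strand at chr16:67028984-67101058 with 5 promoters, of which 1 has protein-coding transcripts, also had no peak by the rule. Its nearest summits lay 57.8 kb upstream (66971226, signal value 82.5), 3751 bp from the TSS of the carboxylesterase gene CES3, and 140 kb beyond its 3' end (67241355, signal value 132.7), 3672 bp from the TSS of the sodium/proton exchanger gene SLC9A5. The CpG ratio at the CBFB promoter was 1.03. The absence of a peak says only that the list built from both replicates has none there, and no counts were at hand to set a limit below it.

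Compared with all protein-coding genes, at least 1 peak by the same rule was found at 56.2% of genes, and 2 of the 4 members had one. Peaks closer than 2.5 kb to a TSS were present at 16.6% of genes, and among the 4 members only RUNX1 had one. Of promoters with a protein-coding transcript, 9.42% had a peak within 2.5 kb, and of those that are CpG-rich (ratio above 0.6) 13.9% had one. RUNX1 P2 belonged to the latter, whereas RUNX2 P2, RUNX3 P2 and the CBFB promoter were CpG-rich without a peak. The 26 peaks of RUNX1 were reached or exceeded by 0.0349% of genes, or 7 genes with RUNX1 itself, and placed it in rank 6 with PRKCH, a protein kinase C gene. Nearest to it in rank were THSD4 with 27 and RAD51B with 28 peaks above, and CRIM1, NRG1 and NRXN3 with 24 each below. The 8 peaks of RUNX2 were reached or exceeded by 2.07% of genes and placed it in rank 304.

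Long genes have more room for peaks, and the window of RUNX1 (1275 kb) was far above the median of 112 kb. When counted per length, RUNX1 had 2.04 peaks per 100 kb of window and RUNX2 had 2.07, which placed them at percentiles 86.0 and 86.1 of all genes, against a median density of 0.67. In the RefSeq bodies, however, RUNX1 had 4.21 peaks per 100 kb and RUNX2 had 0.90, so the near equality of these densities holds for the GENCODE windows only. Among the 67 genes with a window within 1.25 times that of RUNX1 in either direction, the median was 2 peaks, the highest count was 26 and only RUNX1 reached it. For RUNX2, 93 of 708 genes of like length (13.1%) had at least 8 peaks. For RUNX3, 2885 of 7049 genes of like length (40.9%) had 0 peaks, and for CBFB 1512 of 4063 (37.2%) had 0.

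**Figure D3:**
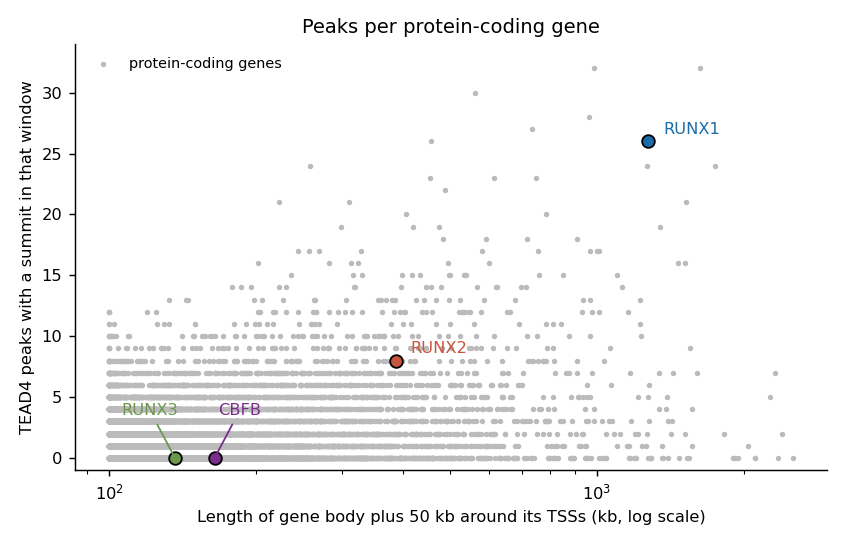
Number of TEAD4 peaks by the assignment rule (y axis) against the length of the window in which they were counted (x axis, kb, log scale) for 20033 protein-coding genes (grey points). RUNX1 has 26 peaks in 1275 kb, RUNX2 has 8 in 386 kb, and RUNX3 (136 kb) and CBFB (164 kb) lie on the line of 0 peaks with many genes of like length.

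The number of RUNX1 peaks rests on the annotation. With the RefSeq bodies and the TSSs within them, RUNX1 had 12 peaks, 1 more than in the RefSeq body itself, RUNX2 had 2 and both RUNX3 and CBFB had 0. All 34 peaks had RUNX1 or RUNX2 as the protein-coding gene with the nearest TSS. Only the noncoding gene ENSG00000286153 also overlapped some of them, namely the RUNX1 summits at 34881659 and 34881879 (signal values 112.9 and 51.6), which lie downstream of P2.

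The signal value is the peak caller's measure of enrichment at a peak. At RUNX1 it had a median of 70.8, and 14 of the 26 peaks were above the list's median of 68.1. At RUNX2 the median was 110.6, with 5 of 8 peaks above the list's median. Of the 8 RUNX2 peaks 3 were in the top 10% of the list, but none of the 26 RUNX1 peaks was in these 2112 peaks. RUNX1 thus had many peaks of middling signal and RUNX2 few peaks of very unequal signal.

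The strongest RUNX2 peak, at 45656058, ranked 302 in the list with a signal value of 402.0. The peak at 45650760 ranked 822 with 290.6, and that downstream of P2, at 45446021, ranked 1572 with 220.2. By its highest peak RUNX2 was in rank 401 of the 11252 genes with a peak. The strongest RUNX1 peaks, at 35477107, 35085125 and 35232752, ranked 2458, 3003 and 3314 with 177.3, 158.2 and 149.2. The latter pair each had an AP-1 motif, 49 and 12 bp from the summit. By its highest peak RUNX1 was in rank 2612.

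Of the 34 peaks, 30 (88.2%) had the highest IDR score, against 76.1% of the list. IDR measures how well the ranks of a peak agree between replicates, here only replicates 1 and 3. The lowest score of the 34 was 844, at the RUNX1 peak at 35198370. A q-value above 0.05 was found for 2 of the 34 (5.88%) and for 3.19% of the list. These were the RUNX1 peak at 34807888 (signal value 11.1) and the RUNX2 peak at 45650959 (signal value 9.73), and each overlapped a stronger peak. Both still had the highest IDR score, so that score alone does not mark a strong peak.

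Of the 34 peaks, 10 (29.4%) overlapped another peak, against 15.9% of the list. They formed 5 pairs whose summits were 199 to 205 bp apart. In RUNX1 the signal values of the pairs were 79.9 and 11.1, 78.5 and 15.1, 72.3 and 59.8, and 117.9 and 61.4. In RUNX2 they were 290.6 and 9.73. Counted as merged regions, RUNX1 had 22 and RUNX2 had 7. Of the 34 peaks 19 were 444 bp wide, with the summit in the middle. Of the list 13039 peaks had this width, and 13038 of them had the summit in the middle.

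At the level of sequence, 8 of the 34 summits (23.5%, Wilson 95% interval 12.4 to 40.0) had the TEAD motif within 100 bp, and 23% of the list did. The AP-1 motif was found at 13 (38.2%, 23.9 to 55.0), against 25.4% of the list, a value inside that interval. The RUNX motif was found at 1 of the 34 (2.94%, 0.521 to 14.9), against 9.53% of the list, which also lies inside the interval. Of the 34 peaks 17 had none of the 3 motifs, against 50.2% of the list. Over the 34 peaks, no motif share could thus be told from that of the list at this number of peaks. The intervals cover counting error only, and neighbouring peaks are not independent.

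**Figure D4:**
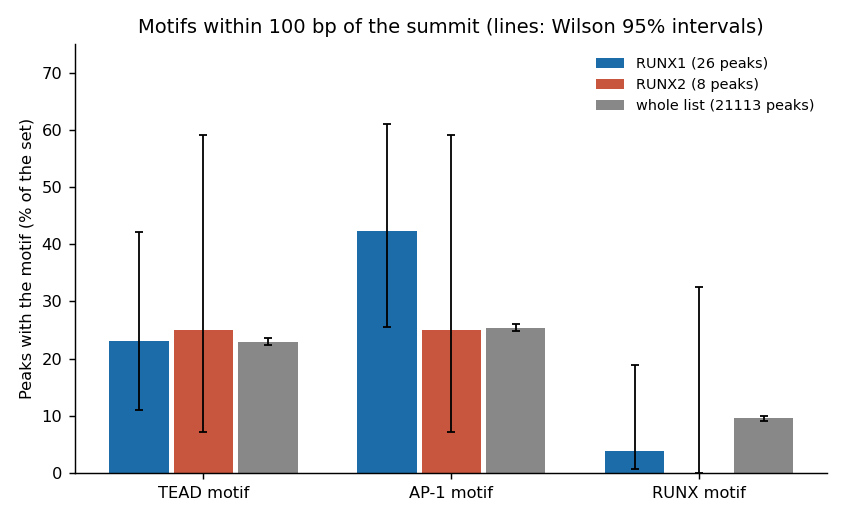
Share of peaks with the TEAD, AP-1 or RUNX motif within 100 bp of the summit (y axis, percent) at RUNX1 (26 peaks), RUNX2 (8 peaks) and in the whole list (21113 peaks), with Wilson 95% intervals as lines. The AP-1 share was 42.3% at RUNX1, 2 of 8 at RUNX2 and 25.4% in the list, and the intervals of both genes are wide.

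Within RUNX1 the AP-1 motif was found at 11 of 26 summits (42.3%, 25.5 to 61.1), a share whose interval begins just above that of the list. Of the 15 peaks upstream of P1, 8 had it, and of the 11 from P1 to the 3' end, 3 had it. The TEAD motif was found at 4 of the former and 2 of the latter. The AP-1 motif at 35198165 (signal value 117.9) lay on the summit itself, and that at 34807686 lay 5 bp from it. This division of the motifs at P1 was made after their values were seen.

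Motifs of more than 1 kind were found at 5 summits, or 14.7% against 7.83% of the list. At 4 of them the TEAD motif was found with AP-1, a combination that 4.49% of the list had. In RUNX1 these were 35303254 (signal value 97.1), with TEAD 11 bp and AP-1 63 bp from the summit, 35217886 (73.1), with TEAD 29 bp and the nearer of 2 AP-1 motifs 17 bp away, and 35198370 (61.4), with TEAD 24 bp and AP-1 94 bp away. All 3 lie upstream of P1. In RUNX2 it was the strongest peak, 45656058, with TEAD 13 bp to the right of the summit and AP-1 motifs 34 and 57 bp to the left. Its neighbour at 45650760 had AP-1 alone, 28 bp away, and the peak downstream of P2 had TEAD alone, at the same distance.

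The strongest RUNX1 peak, at 35477107, was the only one of the 34 with a RUNX motif. Its TEAD motif lay 3 bp and its RUNX motif 7 bp from the summit, on opposite strands, with 3 bases between them, as seen in the first window printed. The TEAD and RUNX motifs occurred together at 421 peaks of the list (1.99%). With 3 bases between them, in any order and on any strand, they occurred at 7 peaks (0.033%), a spacing that was counted after this one had been seen. The base composition of the window was also low in G and C, at 26.9%, the lowest of the 34.

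The promoters of the family were searched for the same motifs in RefSeq (GRCh38.p14), which gives 250 bp before to 50 bp after the start. The table held 5 member promoters, RUNX1 P2 and both promoters of RUNX2 and RUNX3, and RUNX1 P1 and CBFB were not searched. The RUNX motif was found 3 times at RUNX2 P1, which also had 1 AP-1 motif, and 2 times at RUNX3 P1. It was found at 4.27% of the 35116 promoters, AP-1 at 4.95% and TEAD at 3.46%. None of the 5 member promoters had the TEAD motif of 7 bases. The core of 6 bases was found once each at RUNX1 P2, RUNX2 P2 and RUNX3 P1, and 14% of promoters had it. Of these promoters only RUNX1 P2 had a TEAD4 peak.

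Proteins that work with RUNX factors were described by a list of 19 genes. Of these, 13 (68.4%) had a peak by the rule used for the RUNX genes, against 56.2% of all genes, and 7 (36.8%) had one within 2.5 kb of a TSS, against 16.6%. These shares were not adjusted for gene length, and the list was chosen with earlier results of these data known. TLE2 and TLE5, both on chromosome 19, are both counted but share their strongest peak (signal value 37.4). SMAD3, which carries TGF-β signals and binds RUNX proteins, had 21 peaks, 6 of them within 2.5 kb of a TSS, with signal values up to 604.6. The TLE genes encode Groucho corepressors recruited by RUNX proteins, and TLE4 had 7 peaks with signal values up to 525.0 whereas TLE1 had 0. The YAP1 and WWTR1 genes, whose products bind both TEAD and RUNX proteins, had 4 and 7 peaks, with values up to 151.9 and 177.1. RUNX1T1, a corepressor gene fused to RUNX1 in leukaemia, had 6. No peak was found at the acetyltransferase genes EP300, CREBBP and KAT6A, at the ubiquitin ligase gene WWP1 or at CBFA2T3.

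Targets of RUNX factors were divided into skeletal and matrix genes and blood-cell genes. Of 14 skeletal and matrix genes, 7 had a peak by the rule and 3 (21.4%), namely COL1A2, SP7 and ITGA5, had one within 2.5 kb of a TSS. COL1A1, the α1 chain of type I collagen, had 8 peaks with values up to 226.1, and SPP1, or osteopontin, had 4. The osteocalcin gene BGLAP, MMP13 and ALPL had 0. Of 14 blood-cell genes, 7 also had a peak by the rule and 2 (14.3%), CSF2 and CD36, had one within 2.5 kb of a TSS. CSF1R had 6 peaks, but its strongest (250.7) is also counted for its neighbour PDGFRB, and the neighbours CSF2 and IL3 also share their strongest peak. In both lists the shares were thus near those of all genes, 56.2% by the rule and 16.6% within 2.5 kb of a TSS.

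The labelled cell type was looked at through marker genes, with the limit that a peak is not expression. Of 12 genes of stellate cells and myofibroblasts, 10 had a peak by the rule and 5 within 2.5 kb of a TSS, against 56.2% and 16.6% of all genes (RGS5, PDGFRB, SPARC, COL1A2 and TAGLN), and LRAT and LUM had 0. Of 10 hepatocyte genes, 1 had a peak by the rule (SERPINA1) and 0 within 2.5 kb. Of 6 blood cell genes, 3 had a peak by the rule, close to the share of all genes, and 0 within 2.5 kb.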

How the data were processed

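TEAD4 ChIP-seq of LX-2 cells comprised 3 ChIP samples and 2 inputs, all treated with DMSO. Reads were aligned to hg38 by the authors with Chromap, and reproducible peaks of replicates 1 and 3 were taken with the ENCODE IDR pipeline. Replicate 2 was left out, since the authors found that only replicates 1 and 3 agreed well enough. The replicates share 1 list of 21113 peaks with 10 columns. Its signal value and −log10 q-value are those of the peak caller, and its score is the scaled IDR, all as deposited by the authors. No source describes the columns, and their meaning was inferred from their order and range. The peak caller is not given in the sources used here, and the TEAD4 reads were not analysed here. The depth per sample is therefore unknown, and values carry no replicate error. Per the labels, reads were single-end.

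Summits (start plus offset) were assigned to genes of GENCODE release 44. TSSs within 500 bp of each other formed 1 promoter. P1 and P2 were told apart by their start codons. All peaks ended inside hg38 chromosomes. No test was run, since the list has no groups or replicates. Shares have Wilson 95% intervals, which cover counting error only. Single peaks were described where they lay within 2.5 kb of a TSS, were among the 3 strongest of a gene or had motifs of more than 1 kind, besides those in overlapping pairs or segments. The genes named were the 4 members, their neighbours, those near RUNX1 in rank, and 3 lists of RUNX cofactors and targets with the cell type markers. The members and lists were chosen with earlier results of these data known. Alternatives changed the window, the annotation, the set of peaks, the motif and its window. On simulated data, all 300 genes were given the same peaks as by a direct search, and 3000 of 3000 planted motifs were found. The calculations used Python 3.11.15, numpy 2.4.6, pandas 2.3.3, statsmodels 0.14.6 and matplotlib 3.10.9.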

Additional observations from a re-analysis of the deposited data

How the results depend on the processing

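Of 121 alternatives to 13 results, 106 left the value within the limits set and 15 moved it. The limits were 1.5 times for counts and the 95% interval otherwise. Counts, medians and shares have no direction, so that 0 were reversed carries no information. Many of the 106 could not have moved. RUNX3 and CBFB had 0 peaks, so narrower sets and leaving out their peaks could change nothing. The total of 34 peaks fell to 20 with only protein-coding basic transcripts, to 19 with only peaks above the median signal value and to 14 with RefSeq gene bodies, the last chosen after seeing the data. RUNX1 then had 12, 14 and 12 peaks, and RUNX2 had 5 above the median and 2 in RefSeq. Within 100 kb CBFB had 2 peaks, and RUNX3 had 0 in every alternative run. None of them, including that by the nearest TSS, counted the summit 117 kb upstream of RUNX3, which has RUNX3 as its nearest protein-coding gene. Within 1 kb of a TSS, RUNX1 had 1 peak. The median signal value was 110.6 without RUNX1. The TEAD share was 41.2% with the core of 6 bases (46.8% of the list). The AP-1 share was 55.9% within 250 bp. The list's share at that width is not given here, and its 25.4% is for 100 bp, so the pair cannot be compared. The RUNX share was 0.0% in RefSeq bodies and without RUNX1, both of which leave out the only peak with that motif. No paired analysis was possible because no result comes from a test and replicates were combined, and for the same reason no replicate could be left out. Depth is unknown, so peaks below the authors' threshold could not be examined.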
